A study of Homo sapiens with 2 samples.

Results

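The canonical WNT pathway was followed through 10 genes in human pluripotent stem cells: the ligand gene WNT3, the receptor genes FZD5 and FZD7, the coreceptor gene LRP6, the receptor-turnover gene ZNRF3, the effector gene CTNNB1, the transcription factor genes TCF7, TCF7L1 and TCF7L2, and the feedback gene AXIN2. They were taken by symbol, as 10 of the 22474 genes listed in the deposited count tables. The cells of interest were feeder-free extended pluripotent stem cells (ffEPSCs, 25 cells), obtained by converting cells of the H9 line, and they were compared with H9 embryonic stem cells (ESCs, 16 cells). H9 is an established human ESC line, so both states share 1 genetic background, and no transgene or edit is named for either. The sources used here do not give media, passage or the time since conversion. The method was Smart-seq2, which amplifies full-length copies of polyadenylated RNA from a single cell without molecular barcodes.

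In the canonical pathway a secreted WNT ligand joins a Frizzled (FZD) receptor and an LRP coreceptor at the membrane, which stops a destruction complex of AXIN, APC and kinases from marking beta-catenin for degradation. Beta-catenin, the product of CTNNB1, then enters the nucleus and binds TCF and LEF factors on DNA, and genes such as AXIN2 and ZNRF3 are switched on and dampen the signal. In human pluripotent cells the pathway is known both for self-renewal and for the first step towards primitive streak and mesendoderm, in which WNT3 is the ligand most often named.

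The ffEPSC library held 374101290 gene counts (12507469 to 17811209 per cell) and the ESC library 265412149 (11714517 to 19965639 per cell). The libraries shared 0 cell names. Levels are the summed counts of a library's cells, scaled to its total gene counts (counts per 1e6, CPM). Each ratio is the ffEPSC level over the ESC level as a log2 value, with 1 CPM added to both. Each state was 1 deposited sample and cells are not replicates, so no test between states was possible and the values describe these libraries. Intervals are at 95%. Those on pooled levels and on the share of FZD5 come from read counts and hold counting error alone, and amplified reads do not each stand for a molecule. Those on numbers of cells with a read treat the cells of 1 library as separate draws and give no spread between samples. A set number in the cell names is not explained, and only set 1 (3 ffEPSC and 7 ESC cells) and set 3 (2 ffEPSC and 9 ESC cells) hold both states. Chromosomes 5, 11, 14, 20 and 22 stood higher as a whole in the ffEPSC library, with median log2 ratios of 0.29 to 0.44, and 5 of the 25 ffEPSC cells fell below a cut of 0.3 both in the mean shift of the 5 chromosomes and on chromosome 5. These are called weakly shifted. Their mean shift was -0.01 to 0.25, but their shift of chromosome 22 alone was 0.12 to 0.52. The 2 ffEPSC cells of set 3 are among the weakly shifted cells, so values for set 3 and for those cells are not separate checks. TCF7 lies on chromosome 5 and ZNRF3 on chromosome 22. The other 8 genes lie on chromosomes that did not stand higher as a whole. In the ESC library, the 4 cells with fewer than 15000000 gene counts were also low in POU5F1, the OCT4 gene (63.5 to 218 CPM, against 496 to 1310 CPM in the other 12 ESC cells). Both states carried pluripotency markers, with a summed level of 8 genes at 4510 to 6968 CPM in ffEPSC cells and 3633 to 7543 CPM in ESC cells. Of 8 mesendoderm markers 4 were analysed, and their summed level per cell ran up to 43.2 CPM in ffEPSC cells (median 2.28) and up to 3.95 CPM in ESC cells (median 0.0501). Neuroectoderm markers (3 of 4 analysed) summed to at most 9.11 CPM in ffEPSC cells and to 29.4 to 175 CPM in ESC cells, mostly from FABP7 (1.03 CPM in the ffEPSC library and 62.6 CPM in the ESC library). Fibroblast markers (5 of 8 analysed) summed to 47.6 to 414 CPM in ffEPSC cells and 143 to 765 CPM in ESC cells, mostly from THY1 (169 and 382 CPM), which stem cells also carry. All 5 were lower in the ffEPSC library. The widest difference was in S100A4 (0.460 CPM in the ffEPSC library and 34.2 CPM in the ESC library), with all 16 ESC cells above the highest ffEPSC cell. TAGLN was at 12.5 and 47.1 CPM. The part of these markers in the WNT gene differences was not tested.

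Of the 10 genes, WNT3, FZD5, ZNRF3, TCF7 and AXIN2 (5 genes) were higher by 2-fold or more in ffEPSCs, FZD7 and TCF7L2 (2 genes) were lower by 2-fold or more, and LRP6, CTNNB1 and TCF7L1 lay within 2-fold. Among all 10825 genes that reached 5 CPM in either library, 8.3% were higher by that much and 5.84% lower. All 10 genes reached 5 CPM, but WNT3, TCF7 and AXIN2 reached it in the ffEPSC library alone and so could only be counted as higher or within 2-fold. The median log2 ratio was 0.96 over the 10 genes and 0.04 over all genes counted. The 10 genes were chosen with earlier results of these data known, which bears on the counts and on this median.

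Sequences just upstream of the start sites are shown first, for 3 of the genes that were higher by 2-fold or more in ffEPSCs (WNT3, FZD5 and TCF7). They are among the 6 of 10 genes with an entry in the promoter table used, which comes from RefSeq on GRCh38.p14. Each window holds 250 bases before a start site and 50 after it, read 5′ to 3′ on the gene's strand. Capitals mark CTTTGT or CTTTGA, the core letters of TCF and LEF sites, or their reverse complements ACAAAG and TCAAAG. The windows lie at chr17:46818643-46818942 (minus strand) for WNT3, chr2:207769857-207770156 (minus strand) for FZD5, and chr5:134115363-134115662 and chr5:134123368-134123667 (plus strand) for 2 start sites of TCF7.
WNT3: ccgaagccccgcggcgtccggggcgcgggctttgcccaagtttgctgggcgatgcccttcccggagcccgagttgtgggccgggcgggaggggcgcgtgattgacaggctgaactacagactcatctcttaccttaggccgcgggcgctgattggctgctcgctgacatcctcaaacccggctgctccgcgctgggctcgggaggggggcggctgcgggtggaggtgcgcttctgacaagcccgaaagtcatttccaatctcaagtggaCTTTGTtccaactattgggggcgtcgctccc
FZD5: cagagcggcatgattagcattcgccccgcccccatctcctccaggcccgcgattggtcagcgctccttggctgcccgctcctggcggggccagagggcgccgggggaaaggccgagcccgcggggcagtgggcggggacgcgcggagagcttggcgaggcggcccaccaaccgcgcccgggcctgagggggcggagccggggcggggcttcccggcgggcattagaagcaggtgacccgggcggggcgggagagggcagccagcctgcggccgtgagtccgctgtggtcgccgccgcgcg
TCF7, first start site: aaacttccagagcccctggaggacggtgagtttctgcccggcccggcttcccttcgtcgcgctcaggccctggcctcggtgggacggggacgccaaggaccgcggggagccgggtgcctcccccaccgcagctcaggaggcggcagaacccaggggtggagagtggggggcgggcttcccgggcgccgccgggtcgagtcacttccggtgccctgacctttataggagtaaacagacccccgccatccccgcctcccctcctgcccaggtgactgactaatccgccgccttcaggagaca
TCF7, second start site: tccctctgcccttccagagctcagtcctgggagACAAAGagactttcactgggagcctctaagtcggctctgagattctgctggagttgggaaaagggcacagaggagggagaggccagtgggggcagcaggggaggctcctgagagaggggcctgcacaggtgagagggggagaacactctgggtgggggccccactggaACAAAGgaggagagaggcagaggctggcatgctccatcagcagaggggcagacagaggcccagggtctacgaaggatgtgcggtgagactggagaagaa

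The WNT3 window held 1 match, CTTTGT, 19 bases after the start site. The second TCF7 window held 2 matches on the minus strand, 217 and 49 bases before the start site. The FZD5 window and the first TCF7 window held 0. Across the 9 windows of the 6 genes (WNT3, FZD5, TCF7, TCF7L1, TCF7L2 and CTNNB1), 3 held a match, the third being a TCF7L2 window with 1. Of 35116 promoter windows of the same length, 26.2% held either motif on either strand, 12.9% CTTTGA and 16.1% CTTTGT. A match gives letters in a window, and binding was not measured.

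WNT3, the ligand gene, was read in most ffEPSC cells and in few ESC cells. It lies at chr17:46762506-46833154 on the minus strand (GRCh38, GENCODE version 29, as for the other genes). Its level per cell was 0, 29.4 and 87.3 CPM (lowest, median, highest) in ffEPSC cells, against 0, 0 and 8.46 CPM in ESC cells. The groups overlapped only at the low end: 19 ffEPSC cells lay above the highest ESC cell. At an equal depth of 11000000 counts per cell, WNT3 had a read in 22 of 25 ffEPSC cells (95% Clopper-Pearson interval 68.8 to 97.5%) and 5 of 16 ESC cells (11.02 to 58.7%), the same numbers as without thinning. Pooled, it stood at 29.2 CPM in the ffEPSC library (Poisson interval 28.7 to 29.7) and 0.799 CPM in the ESC library (0.695 to 0.914), a log2 ratio of 4.07. A single ESC cell gave 67.0% of the ESC library's WNT3 counts. The log2 ratio was 2.72 within set 1 and 3.94 within set 3.

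**Figure D1:**
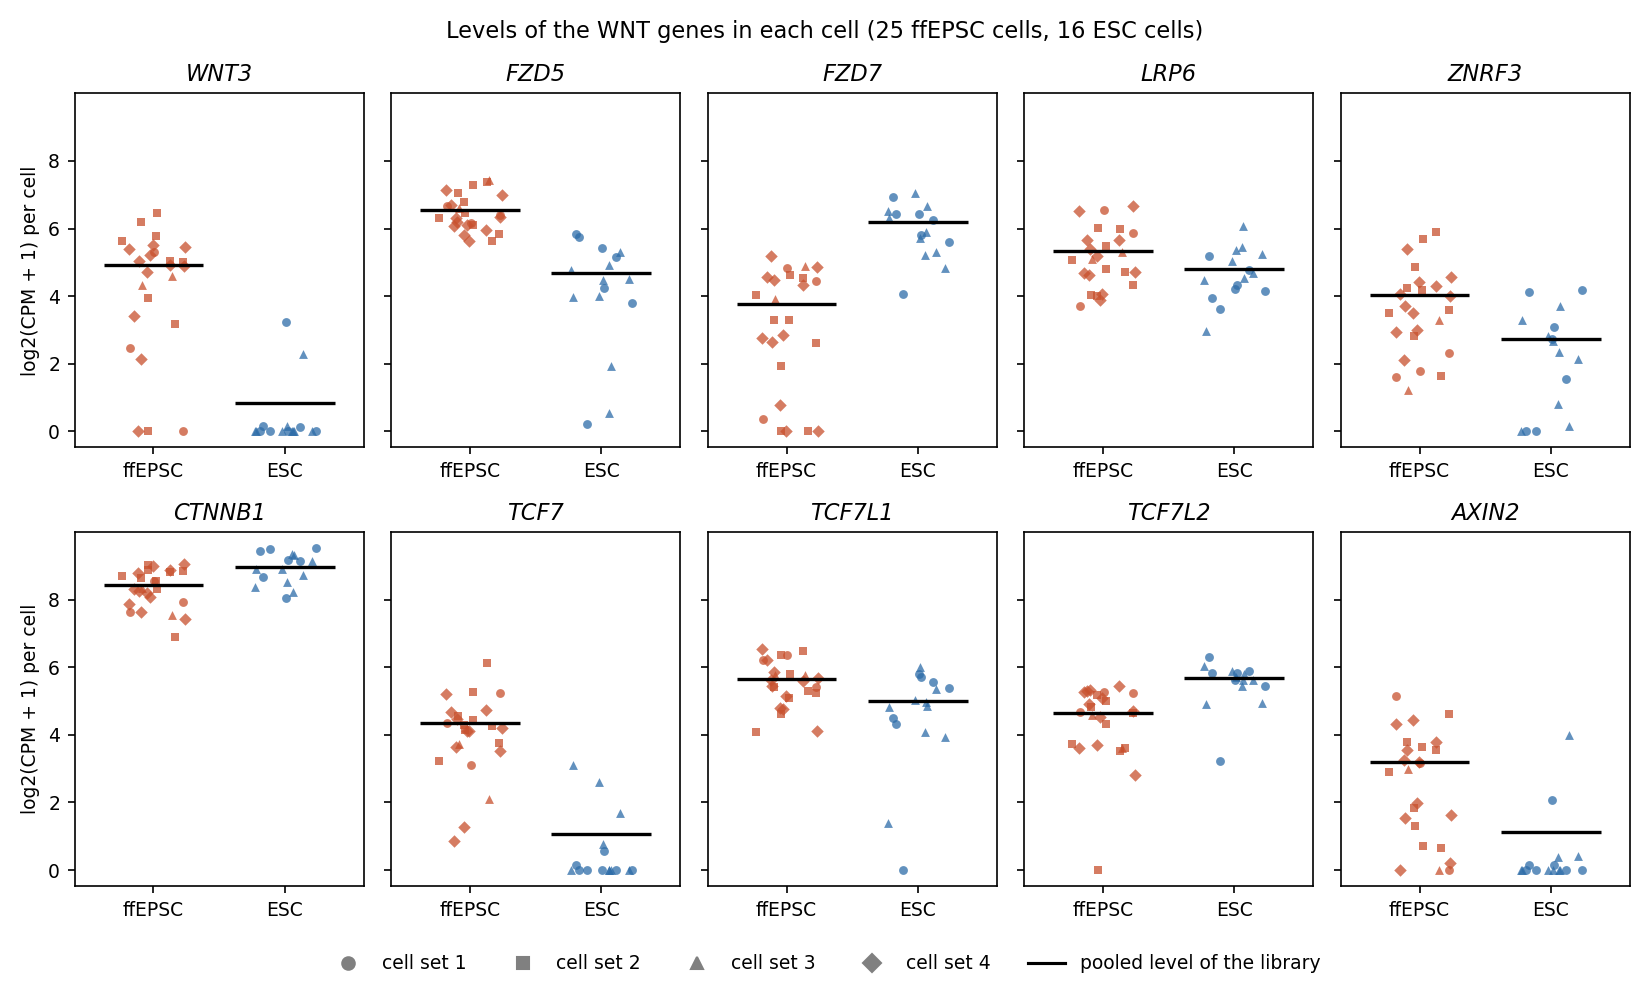
Level of each of the 10 WNT genes in every cell, as log2(CPM + 1) on the vertical axis, with ffEPSC cells (red) left of ESC cells (blue), point shapes for the cell sets and a line at the pooled level. WNT3, TCF7 and AXIN2 lay near 0 in most ESC cells, FZD5 was high in all ffEPSC cells, and FZD7 was high in ESC cells.

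Of 19 WNT ligand genes, 8 were among the genes counted and 11 were not, so the levels of those 11 are not known. Among the 8, WNT3 had the highest level per length in the ffEPSC library. Per kilobase of exon it made up 59.4% of the reads of 8 WNT ligand genes analysed in ffEPSCs and 24.6% in ESCs. WNT5A, a ligand mostly of the beta-catenin-independent branch, made up 4.23% in ffEPSCs and 67.6% in ESCs. Its own pooled level was 3.55 CPM in the ffEPSC library and 3.75 CPM in the ESC library (log2 ratio -0.06). The sets differed in direction, with -3.03 within set 1 and 1.32 within set 3. The 8 ligand genes together came to 11.3 CPM per kilobase in the ffEPSC library and 0.749 CPM per kilobase in the ESC library. WNT8A, a canonical ligand of the early embryo, was at 4.71 CPM in the ffEPSC library and at 0 in the ESC library (log2 ratio 2.51). Its ffEPSC level was 417-fold above a limit of 3 counts in the whole ESC library. It was read at 1 CPM or more in 9 of 25 ffEPSC cells and 0 of 16 ESC cells, and a single ffEPSC cell gave 40.4% of its counts. WNT10B, another canonical ligand, was at 2.26 CPM in the ffEPSC library, of which 1 cell gave 56.4%, and at 0.00754 CPM in the ESC library. PORCN, the enzyme that attaches the lipid a WNT needs, stood at 11.2 CPM in the ffEPSC library and 11.5 CPM in the ESC library, and the WNT carrier gene WLS at 1.101 and 0.648 CPM.

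The 2 receptor genes stood in opposite order in the 2 states. FZD5, at chr2:207762586-207769563, had 48.8, 79.5 and 174 CPM per cell in ffEPSCs (lowest, median, highest), against 0.170, 21.4 and 56.0 CPM in ESCs. In 22 of 25 ffEPSC cells it lay above the highest ESC cell, and 2 of 16 ESC cells lay above the lowest ffEPSC cell, so 5 cells lay in the overlap. Pooled it was at 93.4 CPM in the ffEPSC library (interval 92.4 to 94.4) and 24.9 CPM in the ESC library (24.4 to 25.6), a log2 ratio of 1.86, with 1.34 within set 1 and 2.75 within set 3. FZD7, at chr2:202034587-202038445, had 0, 8.87 and 35.1 CPM per cell in ffEPSCs, against 15.7, 66.8 and 131 CPM in ESCs. All 25 ffEPSC cells lay below the ESC median, and 14 of 16 ESC cells lay above the highest ffEPSC cell. Over all cells it stood at 12.6 CPM in the ffEPSC library (interval 12.3 to 13.01) and 72.1 CPM in the ESC library (71.0 to 73.1), a log2 ratio of -2.42, with -2.10 within set 1 and -1.73 within set 3. In the 5 weakly shifted ffEPSC cells FZD7 ran from 14.1 to 35.1 CPM, against 0 to 28.3 CPM in the other 20 ffEPSC cells, and the log2 ratio of those 5 cells over ESCs was -1.48. Among ESC cells FZD7 was lower in the 4 shallow cells (15.7 to 47.1 CPM, against 38.5 to 131 CPM in the other 12), and the log2 ratio without them was -2.60.

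**Figure D2:**
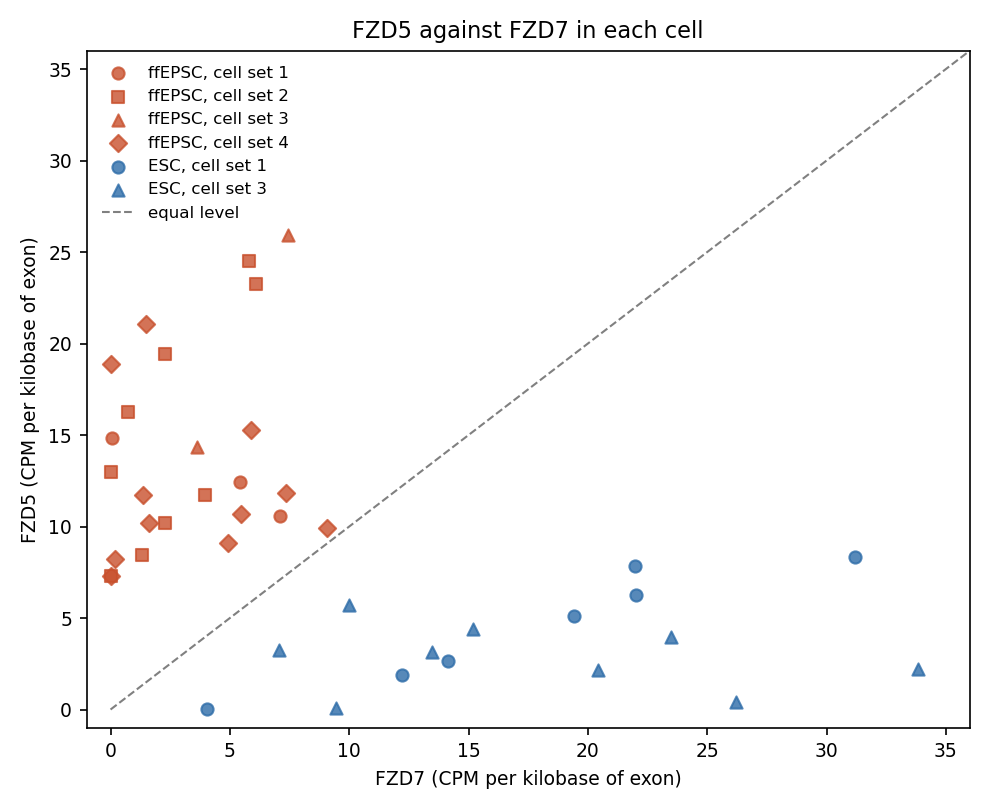
FZD5 (vertical) against FZD7 (horizontal) in each cell, both in CPM per kilobase of exon, with ffEPSC cells in red, ESC cells in blue and point shapes for the cell sets. All 25 ffEPSC cells lie above the dashed line of equal levels and all 16 ESC cells below it.

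Per kilobase of exon, FZD5 made up 81.0% of FZD5 and FZD7 together in the ffEPSC library (95% Clopper-Pearson interval 80.5 to 81.4%) and 16.6% in the ESC library (16.2 to 17.0%). In single cells the FZD5 share was 52.1, 81.6 and 100% in ffEPSCs (lowest, median, highest), against 0.621, 17.4 and 36.4% in ESCs. The states did not overlap: the share was above 50% in 25 of 25 ffEPSC cells and in 0 of 16 ESC cells. The sum of both genes was 17.2 CPM per kilobase in the ffEPSC library and 22.4 in the ESC library. Within a state, Spearman's rho between the 2 genes was 0.25 over the 25 ffEPSC cells and 0.35 over the 16 ESC cells. Over the 12 ESC cells that were not shallow it was -0.09.

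Over all 10 FZD genes, FZD5 held 50% of the level per kilobase in ffEPSCs and 11.2% in ESCs, and FZD7 held 11.8% in ffEPSCs and 56.2% in ESCs. The third was FZD3, a receptor known mainly for planar polarity, with 16.1% in ffEPSCs and 14.7% in ESCs (61.8 and 67.5 CPM). Of 11 receptor and coreceptor genes that reached the floor, 3 were higher by 2-fold or more in ffEPSCs (FZD5, FZD4 and ROR2) and 2 were lower (FZD7 and FZD2). The shares over all genes at the floor were 8.3% and 5.84%. FZD4 and ROR2 reached the floor in the ffEPSC library alone and FZD2 in the ESC library alone. Each of these could be counted past 2-fold in 1 direction only. FZD2 was lower in the ffEPSC library (2.11 CPM, against 7.97 CPM in ESCs, log2 ratio -1.53) and FZD4 higher (5.34 CPM, against 1.17 CPM in ESCs, 1.55), though FZD4 was lower within set 3 (-1.05). ROR2, a receptor of the beta-catenin-independent branch, was at 6.23 CPM in the ffEPSC library and 0.460 CPM in the ESC library (2.31), and was also lower within set 3 (-0.84). The summed level of the 10 FZD genes was 27.9 CPM per kilobase in the ffEPSC library and 33.2 in the ESC library.

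**Figure D3:**
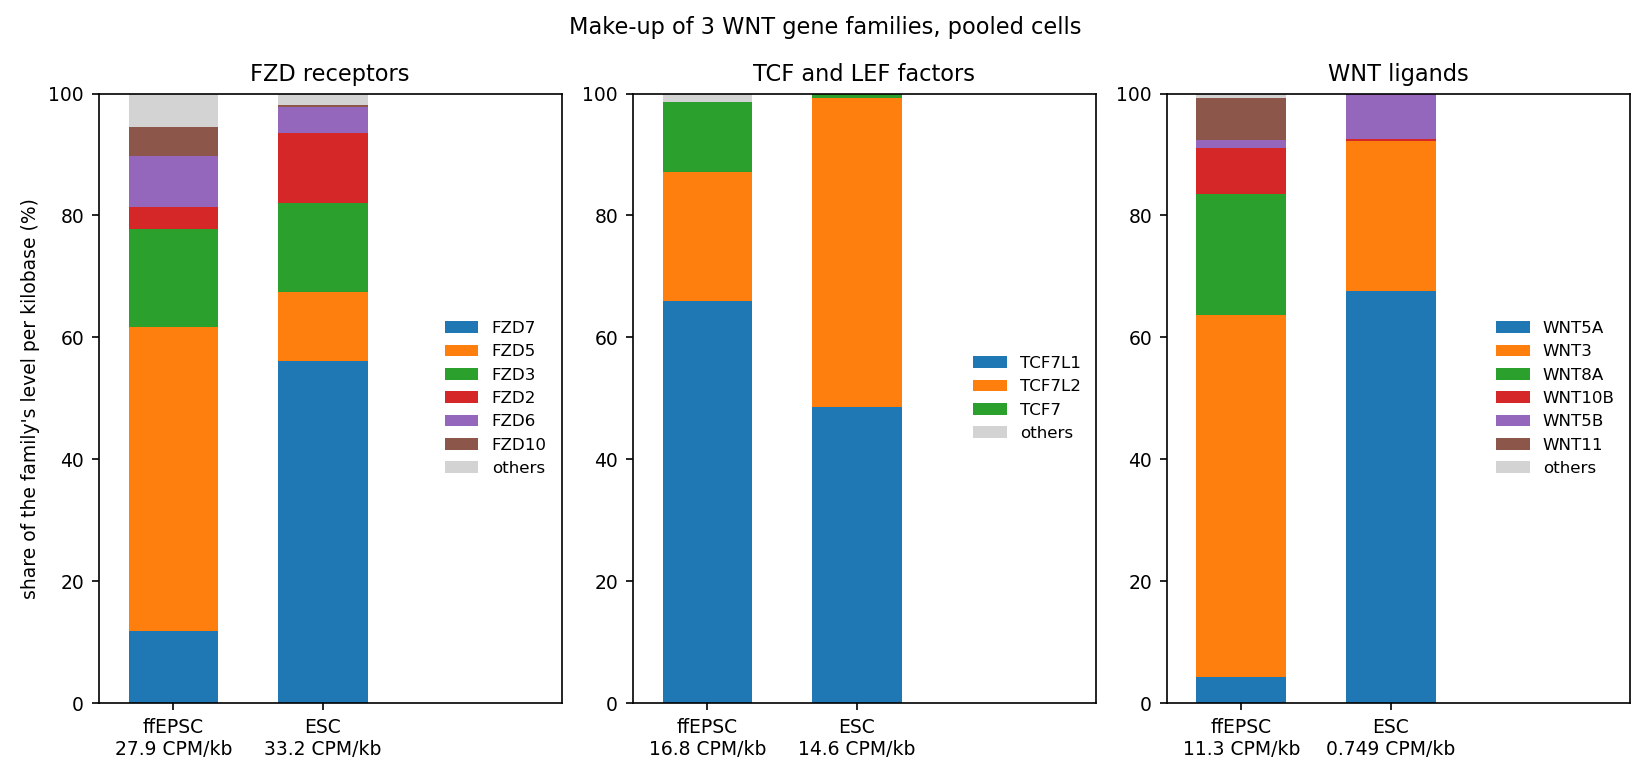
Make-up of the FZD receptor, TCF and LEF factor and WNT ligand families in the pooled ffEPSC and ESC libraries, as the percent of each family's summed CPM per kilobase of exon, which is printed under each bar. The WNT ligand bars hold the 8 ligand genes among those counted. FZD5 is 50% of its family in ffEPSCs and 11.2% in ESCs, and TCF7L2 is 21.3% of its family in ffEPSCs and 50.7% in ESCs.

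LRP6, the coreceptor gene (chr12:12116025-12267012), was less than 2-fold apart between the states. Its level was 11.96, 33.4 and 99.8 CPM per cell in ffEPSCs, against 6.87, 23.5 and 66.4 CPM in ESCs, so the ranges overlapped widely. The pooled level was 39.1 CPM in the ffEPSC library and 26.9 CPM in the ESC library (log2 ratio 0.52), with 1.33 within set 1 and 0.18 within set 3. ZNRF3 (chr22:28883592-29057487), a membrane ubiquitin ligase that removes FZD and LRP6 from the surface and is itself a WNT target, had 1.35, 10.996 and 58.4 CPM per cell in ffEPSCs, against 0, 4.71 and 17.3 CPM in ESCs. Pooled it was at 15.5 CPM in the ffEPSC library and 5.70 CPM in the ESC library (log2 ratio 1.298). This difference depended on the cells used: the log2 ratio was -1.07 within set 1, 0.04 within set 3 and 0.07 for the 5 weakly shifted ffEPSC cells. The ffEPSC cells of set 3 are among those 5 cells. Chromosome 22 as a whole had a median log2 ratio of 0.44, and over the 25 ffEPSC cells ZNRF3 had a rho of 0.64 with the cell's shift of chromosome 22.

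CTNNB1, the beta-catenin gene (chr3:41194741-41260096), had the highest level per kilobase of the 10 genes, at 28.8 CPM per kilobase in the ffEPSC library and 42.2 in the ESC library. Its level was 118, 326 and 535 CPM per cell in ffEPSCs, against 265, 524 and 733 CPM in ESCs. The ranges overlapped, and the pooled levels of 344 CPM in the ffEPSC library and 503 CPM in the ESC library gave a log2 ratio of -0.55. It was -1.03 within set 1, -0.84 within set 3 and -0.43 without the 4 shallow ESC cells, in which CTNNB1 was at 566 to 733 CPM, against 265 to 690 CPM in the other 12. CDH1, which encodes E-cadherin, the membrane partner that holds beta-catenin, was at 124 CPM in the ffEPSC library and 118 CPM in the ESC library (0.07).

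**Figure D4:**
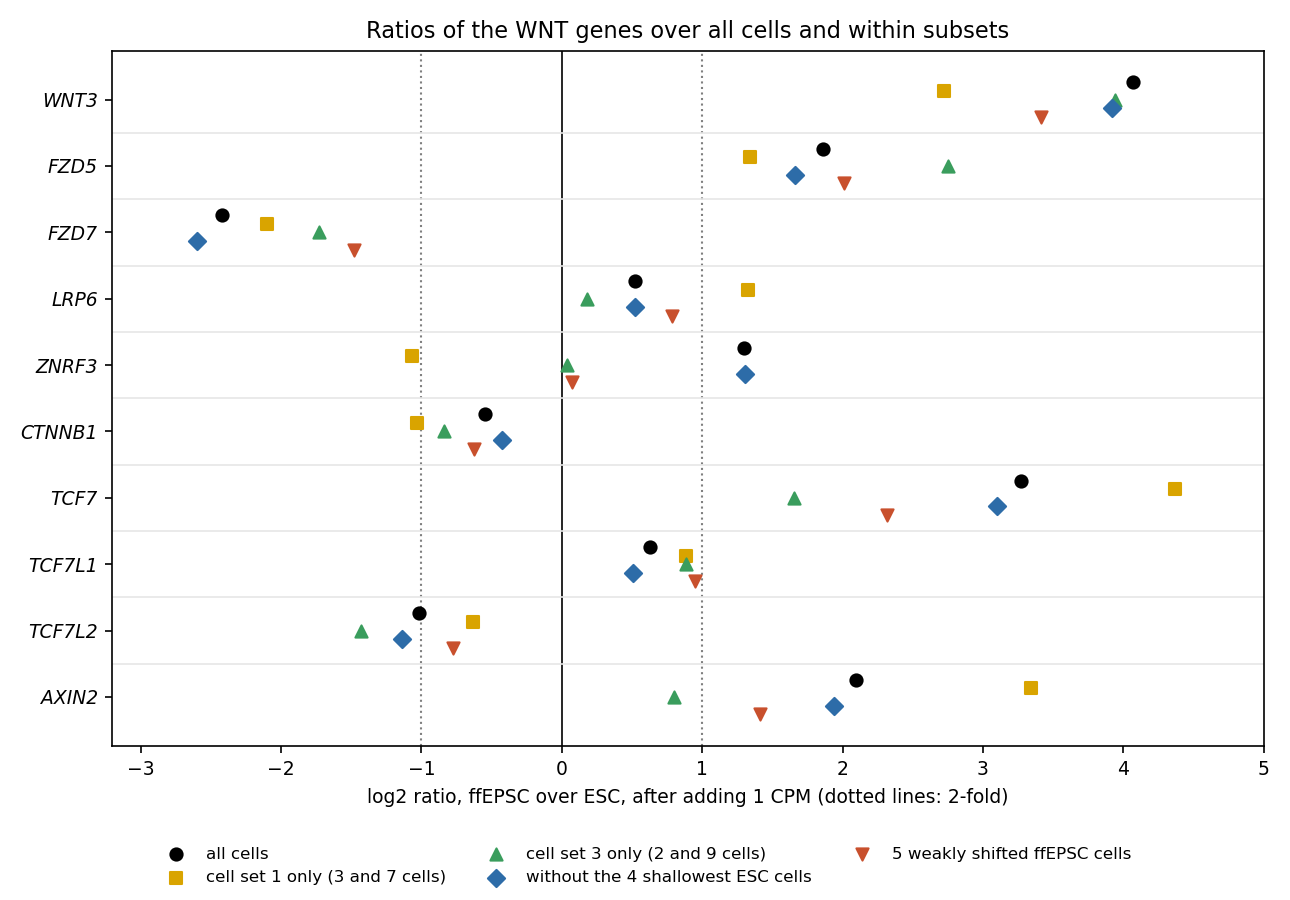
Log2 ratio of ffEPSC over ESC after adding 1 CPM (horizontal axis) for each of the 10 WNT genes, over all cells and within 4 subsets of cells, with dotted lines at 2-fold. WNT3, FZD5 and TCF7 lie above 2-fold and FZD7 below it for every subset drawn, while ZNRF3 lies on both sides of 0.

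The DNA-binding factors differed in opposite directions. TCF7 (chr5:134114711-134151865), a factor known both as an activator of WNT targets and as a target itself, had 0.806, 17.3 and 69.6 CPM per cell in ffEPSCs, against 0, 0 and 7.64 CPM in ESCs. All 25 ffEPSC cells had a read, and 22 lay above the highest ESC cell. Over all cells it stood at 19.3 CPM in the ffEPSC library (interval 18.8 to 19.7) and 1.1002 CPM in the ESC library (0.978 to 1.23), of which a single ESC cell gave 47.9%. The log2 ratio was 3.27, with 4.37 within set 1, 1.66 within set 3 and 2.32 for the 5 weakly shifted ffEPSC cells. Chromosome 5 as a whole had a median log2 ratio of 0.30. TCF7 shares 2.09% of its exon bases with SKP1 on the opposite strand, and the sources used here do not give whether counting used strand.

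TCF7L2 (chr10:112950250-113167678), also a beta-catenin partner, had 0, 24.6 and 42.2 CPM per cell in ffEPSCs, against 8.34, 49.7 and 77.8 CPM in ESCs. All 25 ffEPSC cells lay below the ESC median, and 13 of 16 ESC cells lay above the highest ffEPSC cell. The pooled levels of 24.1 CPM in the ffEPSC library and 49.9 CPM in the ESC library gave a log2 ratio of -1.02, just past 2-fold. It was -0.63 within set 1, and leaving out single cells moved it between -1.07 and -0.96. TCF7L2 shares 4.45% of its exon bases with an antisense gene, AL158212.2. TCF7L1 (chr2:85133410-85310388), the family's main repressor in pluripotent cells, had 15.9, 47.8 and 92.5 CPM per cell in ffEPSCs, against 0, 29.2 and 63.1 CPM in ESCs. Its ranges overlapped, and the pooled levels of 49.0 CPM in the ffEPSC library and 31.3 CPM in the ESC library gave a log2 ratio of 0.63. LEF1, the fourth family member and a target gene, was at 1.28 CPM in the ffEPSC library, with 1 CPM or more in 5 of 25 cells. In the ESC library it was at 0 (log2 ratio 1.19). Its ffEPSC level was 114-fold above a limit of 3 counts in the ESC library.

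Per kilobase, the TCF and LEF family was made up of TCF7L1 (65.9%), TCF7L2 (21.3%), TCF7 (11.4%) and LEF1 (1.42%) in ffEPSCs. In ESCs it was made up of TCF7L2 (50.7%), TCF7L1 (48.5%) and TCF7 (0.749%), with LEF1 at 0. The family's sum was 16.8 CPM per kilobase in the ffEPSC library and 14.6 in the ESC library.

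AXIN2 (chr17:65528563-65561647), the scaffold of the destruction complex whose gene is a general readout of beta-catenin signalling, was low in both states. Its level was 0, 6.97 and 34.8 CPM per cell in ffEPSCs, against 0, 0 and 14.9 CPM in ESCs. At 1 CPM or more it was read in 19 of 25 ffEPSC cells and 2 of 16 ESC cells, while 4 ffEPSC cells lay above the highest ESC cell. The pooled level was 8.26 CPM in the ffEPSC library (interval 7.97 to 8.56) and 1.17 CPM in the ESC library (1.04 to 1.31), a log2 ratio of 2.09. A single ESC cell gave 78.7% of the ESC counts, and the log2 ratio without it was 2.87. Within set 1 it was 3.34 and within set 3, which holds that ESC cell, 0.80. In the annotation used, AXIN2 shares 25.2% of its exon bases with AC004805.1 on the same strand, so its counts may depend on how such reads were assigned.

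Of a list of 97 pathway genes, chosen with earlier results of these data known, 75 were analysed and 43 reached 5 CPM in at least 1 library, 8 of them in the ffEPSC library alone and 3 in the ESC library alone. Of the 43, 11 were higher in ffEPSCs by 2-fold or more, 6 were lower by as much and 26 lay within 2-fold, with a median log2 ratio of 0.35. The shares over all 10825 genes are the 8.3% and 5.84% given above. Without the floor, 22 of the 75 were higher and 11 lower, beside 6.9% and 5.04% of all 22474 genes. Of the 11 higher genes, 6 lie on the chromosomes that stood higher as a whole (TCF7, ZNRF3, KREMEN1, CCND1, FZD4 and BCL9L), as do 11 of the 43 and 19.1% of all genes counted that have a chromosome.

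Of the 6 antagonist genes that reached the floor, 3 were lower by 2-fold or more in ffEPSCs and 1 was higher, with a median log2 ratio of -1.38. FRZB and WIF1 reached the floor in the ESC library alone and KREMEN1 in the ffEPSC library alone. Each of these could be counted past 2-fold in 1 direction only, which also bears on the median. Among all genes at the floor, 8.3% were higher and 5.84% lower. SFRP1, which binds and sequesters WNTs, had 0.124, 5.17 and 129 CPM per cell in ffEPSCs, against 32.7, 82.1 and 149 CPM in ESCs. Pooled it was at 21.5 CPM in the ffEPSC library and 85.5 CPM in the ESC library (log2 ratio -1.94). SFRP1 stood at 70.2 CPM in the 5 weakly shifted ffEPSC cells and at 9.04 CPM in the other 20. The log2 ratio over ESCs was -0.28 for those 5 cells and -0.17 within set 3, whose ffEPSC cells are among the 5. FRZB, of the same family, was at 1.15 CPM in the ffEPSC library and 10.9 CPM in the ESC library (-2.47), and WIF1, another WNT-binding antagonist, at 0.658 and 6.67 CPM (-2.21, but -0.09 within set 3). SFRP2 had the highest level per kilobase of the antagonists, with 203 CPM in the ffEPSC library and 358 CPM in the ESC library (-0.82), and CER1, which binds WNT, NODAL and BMP ligands, was below the floor at 0.428 and 4.56 CPM. KREMEN1, a membrane receptor that acts with DKK proteins to remove LRP6, was the 1 higher member. It was at 16.1 CPM in the ffEPSC library and 0 in the ESC library (log2 ratio 4.10). Its ffEPSC level was 1424-fold above a limit of 3 counts in the ESC library. It had 1 CPM or more in 19 of 25 ffEPSC cells and 0 of 16 ESC cells, and it lies on chromosome 22, as ZNRF3 does. Its level was 4.99 CPM in the 5 weakly shifted ffEPSC cells and 18.9 CPM in the other 20.

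Among the other steps, LGR4, the R-spondin receptor that restrains ZNRF3, was just under the 2-fold limit, with 65.0 CPM in the ffEPSC library and 32.0 CPM in the ESC library. RSPO2, an R-spondin, was at 0 in the ffEPSC library and 4.13 CPM in the ESC library, where it had 1 CPM or more in 3 of 16 cells. A single ESC cell gave 71.7% of its counts, its ESC level without the 4 shallow cells was 1.45 CPM, and leaving out single cells moved the log2 ratio between -2.45 and -1.15. Of 10 measured genes of Dishevelled and the destruction complex, AXIN2 was higher and 9 lay within 2-fold. AXIN2 reached the floor in the ffEPSC library alone. Over all genes at the floor, 8.3% were higher and 5.84% lower. Among the 9 were the kinase gene CSNK1A1 (267 CPM in the ffEPSC library and 186 CPM in the ESC library), the tankyrase gene TNKS2 (43.5 and 49.7 CPM) and DVL2 (31.8 and 25.8 CPM). Of 11 nuclear effector genes that reached the floor, TCF7, BCL9L and TLE2 were higher by 2-fold or more and TCF7L2 was lower. The 3 higher genes reached the floor in the ffEPSC library alone and so could only be counted as higher or within 2-fold. The shares over all genes at the floor were 8.3% higher and 5.84% lower. BCL9L, which links beta-catenin to transcription, was at 5.19 CPM in the ffEPSC library and 1.14 CPM in the ESC library (1.53). The corepressor gene TLE2 was at 11.3 and 3.78 CPM (1.37, but 0.85 within set 1 and 0.68 within set 3). TLE1, also a corepressor gene, was at 37.6 and 39.8 CPM (-0.08).

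Of 20 target genes on the list, 13 were analysed and 4 reached the floor, and these 4 were higher in ffEPSCs by 2-fold or more (8.3% of all genes at the floor). AXIN2, TCF7 and ZNRF3 are 3 of them, and AXIN2 and TCF7 passed the floor in the ffEPSC library alone. Without the floor, 9 of the 13 were higher and 1 was lower, beside 6.9% and 5.04% of all genes. The lower one was APCDD1, a membrane inhibitor of the pathway, at 0.128 CPM in the ffEPSC library and 1.28 CPM in the ESC library (log2 ratio -1.02), and SP5 (-0.01), NKD2 (0.13) and NKD1 (0.87) lay within 2-fold. The fourth target at the floor was CCND1, the cyclin D1 gene, with 135, 268 and 552 CPM per cell in ffEPSCs, against 1.04, 60.4 and 102 CPM in ESCs. Every ffEPSC cell lay above every ESC cell. Over all cells it stood at 303 CPM in the ffEPSC library and 57.3 CPM in the ESC library (log2 ratio 2.38, 2.40 within set 1 and 1.77 within set 3). CCND1 lies on chromosome 11, whose median log2 ratio was 0.33, and it is a target of many pathways. The early mesendoderm target MIXL1 stayed below the floor, at 4.12 CPM in the ffEPSC library and 0.437 CPM in the ESC library. It had 1 CPM or more in 10 of 25 ffEPSC cells and 2 of 16 ESC cells. Of the 9 targets higher without the floor, only TCF7 (1.66) and CCND1 (1.77) stayed past 2-fold within set 3. The others there were AXIN2 (0.80), SP8 (0.06), ZNRF3 (0.04), LEF1 (0), TBXT (-0.02), TNFRSF19 (-0.65) and MIXL1 (-0.82). Within set 1, ZNRF3 (-1.07) and TBXT (-0.64) were lower and the rest of the 9 were higher.

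Most pairs of ligand, receptor and target genes had weak rank correlations from cell to cell. Counts were thinned to 11000000 per cell, and rank correlations were taken over the cells of 1 state, which share a library and its preparation. Over the 45 pairs of the 10 genes in the 25 ffEPSC cells, Spearman rho had a median of 0.10 and ran from -0.28 to 0.53. Of the 45, 2 lay above the 97.5th percentile (0.44) and 0 below the 2.5th percentile (-0.42) of 65434 pairs of these genes with any gene of 20 CPM or more. WNT3 had a rho of 0.18 with AXIN2, 0.10 with TCF7 and 0.36 with ZNRF3. Among the target genes, rho was 0.39 for TCF7 with ZNRF3, 0.01 for AXIN2 with TCF7 and -0.000385 for AXIN2 with ZNRF3. TCF7 had a rho of 0.38 with the cell's shift of chromosome 5, and ZNRF3 0.64 with that of chromosome 22. The part of these shifts in the rho of TCF7 with ZNRF3 was not tested. The highest values were 0.53 for FZD7 with LRP6 and 0.49 for FZD5 with TCF7L1, and LRP6 itself had a rho of -0.49 with the cell's gene counts. With the summed mesendoderm markers, the 10 genes had a rho of -0.34 (TCF7L1) to 0.44 (ZNRF3), with 0.26 for WNT3 and 0.26 for AXIN2.

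**Figure D5:**
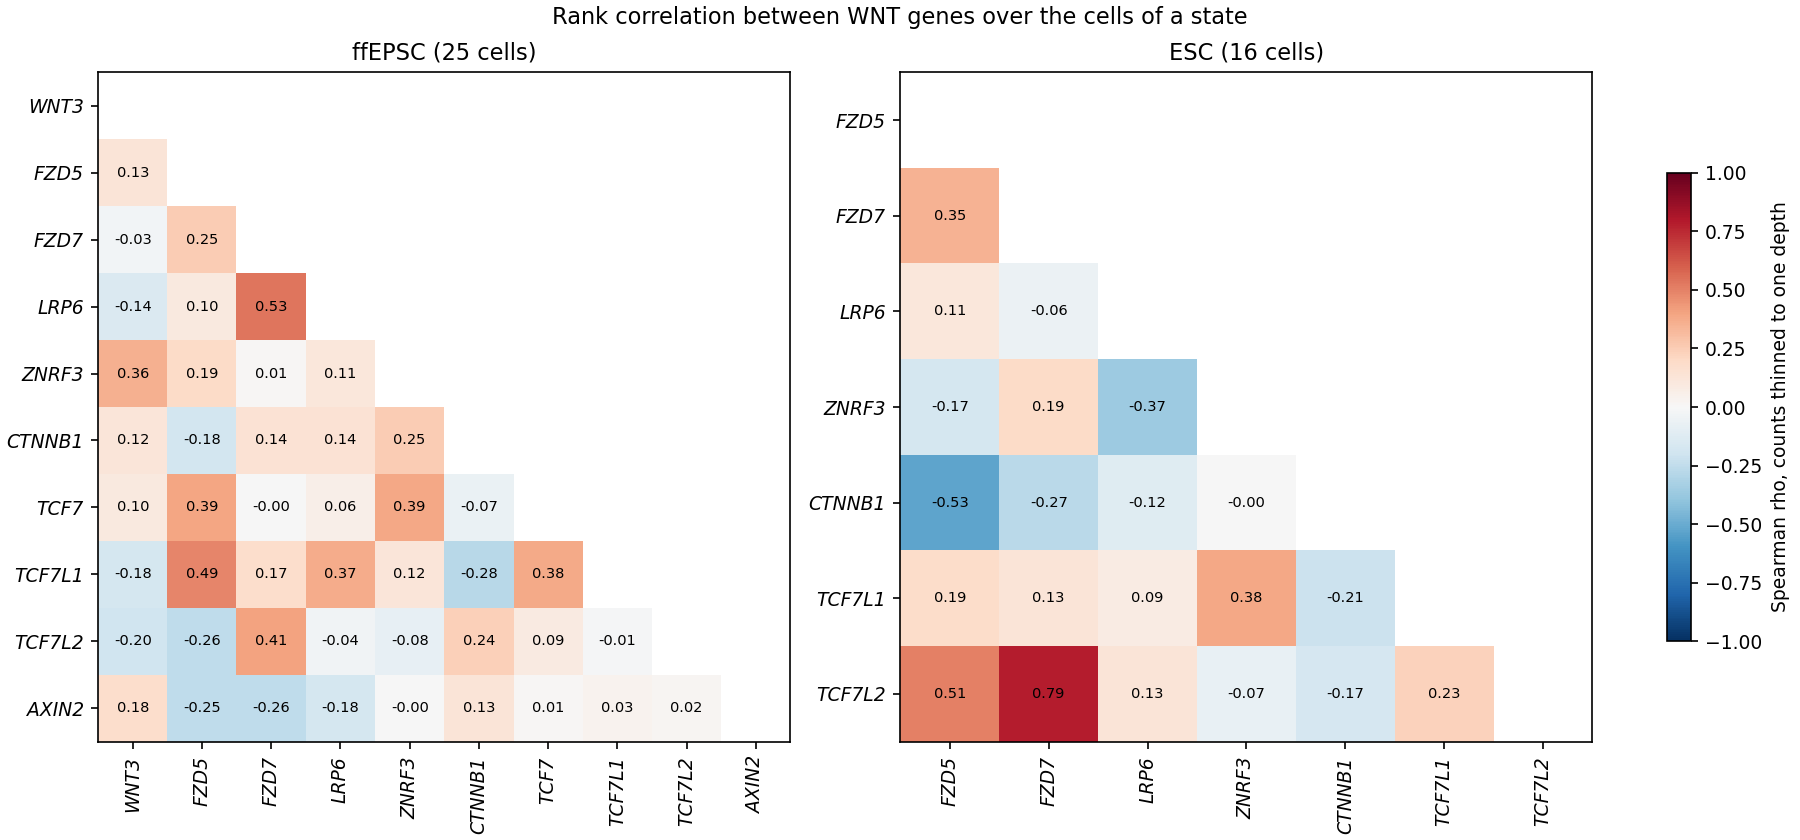
Spearman rho between WNT genes over 25 ffEPSC cells (left) and 16 ESC cells (right), from counts thinned to 11000000 per cell, with red for positive and blue for negative values. Most values are near 0 in ffEPSCs, and the highest in ESCs is 0.79 for FZD7 with TCF7L2.

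In ESCs 7 of the 10 genes had a read in at least 50% of cells, which left 21 pairs with a median rho of 0.09. The highest was 0.79 for FZD7 with TCF7L2, the 2 genes that were lower in the ffEPSC library. This pair moved with depth and with POU5F1 in ESC cells: FZD7 had a rho of 0.82 with the cell's gene counts and 0.79 with POU5F1, and TCF7L2 had 0.69 and 0.77. Without the 4 shallow cells the rho between FZD7 and TCF7L2 was 0.59 over 12 cells, and in the 25 ffEPSC cells it was 0.41. The lowest was -0.53 for FZD5 with CTNNB1, which was -0.22 without the 4 shallow cells.

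The genes whose levels followed WNT3 most closely over the 25 ffEPSC cells, among 6543 genes with 20 CPM or more, were STOML2 (rho 0.72), VPS13A (0.71), PPIE (0.71), TDGF1 (0.70) and PERP (0.67). TDGF1 encodes a coreceptor of NODAL and stood at 1083 CPM in the ffEPSC library and 976 CPM in the ESC library. For AXIN2 they were WASHC4 (0.65), MTFR2 (0.65), ABHD4 (0.65), BAIAP2 (0.62) and FBXO42 (0.60). For FZD7 over the 16 ESC cells they were MARS1 (0.94), TSPAN3 (0.92), PGRMC1 (0.91), PDIA4 (0.91) and PLD3 (0.91). Any of the 10 genes had a best partner at 0.65 to 0.78 in ffEPSCs, and the 7 genes compared in ESCs at 0.82 to 0.94, so these values are of the size reached by the best partner of every gene examined.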

How the data were processed

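The values are whole-number gene counts per cell, deposited by the authors without normalization, from Smart-seq2 libraries per the labels' protocols. Alignment and counting tools listed, per the submitters' processing notes, are HISAT2 2.2.1, featureCounts (Subread 2.0.6), SAMtools 1.6 and bcl2fastq. The builds listed are T2T-CHM13 and GRCh38. For the role of each build, the annotation, strand use and multi-mapping reads, the sources used here give nothing. A median of 98.4% (ffEPSC) and 98.5% (ESC) of a cell's non-zero counts were even, as counting each mate of a pair gives, which makes counting intervals too narrow. The repeat tables were not used here.

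Groups came from the labels' cell type. Counts were summed per state with Python 3.11.15 and pandas 2.3.3, and intervals were computed with scipy 1.17.1. A count of 0 was taken to allow up to 3 counts, or 0.00802 CPM (ffEPSC) and 0.0113 CPM (ESC). This limit treats counts as independent draws. Where both mates were counted it is too low, and folds set against it are too high. No cell was removed, doublets were not called and cells were not clustered. Coordinates, gene types and exon lengths come from GENCODE version 29, matched by symbol to 16987 listed genes. The weakly shifted cells lay below 0.3 (log2) both in the mean shift of the 5 picked chromosomes (median ratio of 0.25 or more) and on chromosome 5. Alternatives were a pseudocount of 0.1, TMM factors from edgeR 4.0.16, median-of-ratios factors, means and medians over cells, floors of 0 and 20 CPM, sets 1 and 3 alone, cell subsets and leaving out each cell. The steps were tested on simulated data.

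The 10 genes, the lists and the rules were chosen with earlier results of these data known. Named were the 10 genes, pathway genes past 2-fold at the floor, the 3 highest per kilobase in each role, the 5 nearest by rho for WNT3, AXIN2 and FZD7, CDH1, and markers at the floor, of which the text gives the extremes. WNT5A, LEF1, TBXT, EOMES, FOXA2, APCDD1, SP5, SP8, TNFRSF19, NKD1 and NKD2, outside that rule, were named after their values were seen.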

Additional observations from a re-analysis of the deposited data

How the results depend on the processing

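With 1 library per state no test was made, and depth limits mainly genes near 0. No paired analysis was possible because each state is 1 sample and replicate numbers are names only. Over 11 alternative values each, 9 of the 10 genes kept their direction, while ZNRF3 kept it in 10 and was at -1.07 within set 1. WNT3, FZD5, FZD7 and TCF7 stayed past 2-fold in all 11, AXIN2 in 10, ZNRF3 in 8 and TCF7L2 in 6. The count of higher genes (5) was 3 within set 3, 4 for the 5 weakly shifted ffEPSC cells and 2 with the floor raised to 20 CPM, which fewer genes reach. Within set 1 it stayed at 5, but with LRP6 (1.33) in place of ZNRF3. The count of lower genes within set 1 was 3: FZD7, ZNRF3 and CTNNB1 (-1.03), without TCF7L2 (-0.63). The count of lower genes (2) was 1 for the mean over cells, the median over cells and the 5 weakly shifted ffEPSC cells, and 1 to 2 on leaving out single cells, in each case through TCF7L2. TMM and median-of-ratios factors left 5 and 2. For the pathway list, 11 higher genes became 16 within set 1, 8 within set 3, 22 without a floor and 3 at 20 CPM. The 6 lower genes became 8 within set 1, 10 within set 3, 4 for the weakly shifted ffEPSC cells, 11 without a floor and 3 at 20 CPM. The shares over all genes counted moved too. Within set 1, 14.4% of them were higher by 2-fold or more and 11.6% lower, and within set 3 10.1% and 15.5%. They were 8.87% and 7.28% for the weakly shifted ffEPSC cells, and 6.9% and 5.04% without a floor. The FZD5 share of FZD5 and FZD7 in ffEPSCs (81.0%) was 83.8% from each gene's median over cells, 75.2% in set 1, 78.5% in set 3, 70.2% in the 5 weakly shifted cells and 80.0 to 82.3% on leaving out single cells. In ESCs (16.6%) it was 15.6% from the medians, 20.8% in set 1, 13.1% in set 3 and 15.7 to 18.01% on leaving out single cells. Not divided by length, an alternative chosen after seeing the data, it was 88.1% in ffEPSCs and 25.7% in ESCs. The median rho between genes in ESCs (0.09) was 0.028 without the 4 shallow cells and 0.17 for ranks within sets. Where no construction shows it, the cause was not tested.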

Other observations

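At 1 CPM or more, WNT3 and AXIN2 were read in the same ESC cells. This pattern was seen after the values were examined and is given here as values. Below 1 CPM the genes did not match. Some ESC cells had a WNT3 read with AXIN2 at 0, and others an AXIN2 read with WNT3 at 0. WNT3 and AXIN2 each reached 1 CPM in 2 of 16 ESC cells, and these were the same 2 cells. The first, of set 1, had 8.46 CPM of WNT3 and 3.22 CPM of AXIN2, and the second, of set 3, had 3.91 CPM of WNT3 and 14.9 CPM of AXIN2. Both had pluripotent levels of POU5F1 (878 and 1218 CPM), and the mesendoderm genes TBXT, MIXL1 and EOMES were at 0 in both. The fourth analysed mesendoderm gene, FOXA2, was at 3.70 CPM in the first cell, near the highest summed mesendoderm level of any ESC cell (3.95 CPM), and at 0 in the second. FZD7 was at 85.0 CPM in the first and 38.5 CPM in the second. Among ffEPSCs, the 3 of 25 cells with WNT3 at 0, from sets 1, 2 and 4, had AXIN2 at 0, 1.48 and 8.601 CPM.

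The 5 weakly shifted ffEPSC cells differed from the other 20 in several pathway genes, including genes on chromosomes that did not stand higher. FZD7 was at 25.2 CPM in the 5 cells and 9.41 CPM in the other 20, WNT3 at 18.1 and 32.0 CPM, AXIN2 at 4.76 and 9.16 CPM, TCF7 at 9.47 and 21.8 CPM, and FZD5 at 103 and 90.9 CPM. Single-cell ranges overlapped for each of these genes. For AXIN2 the medians over cells were close, at 6.97 CPM in the 5 cells and 7.39 CPM in the other 20. These cells belong to the same library as the others, and the differences were not tested.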
